A study of Mus musculus with 9 samples.

Results

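Among cell cycle genes in ribosome-bound RNA of the mouse retinal glial fraction, Ndc80 was the single member called by the test 72 h after crush of the optic nerve, at 3.13 times the level in the fellow eyes (n = 5 ONC and 4 Control libraries), but it entered the deposited table through 1 condition alone, which favours a difference. Among the members that entered through both conditions, 0 passed by limma in the main fit, which did not pair fellow eyes (9 at an unadjusted p under 0.05). The largest difference among those was that of the CDK inhibitor Cdkn1a, at 2.89 times the level in the fellow eyes, which missed the threshold (adjusted p = 0.0686 by limma). Cdkn1a passed with the animal pool as a block (adjusted p = 0.0428 by limma), but not with a variance trend added to the block (adjusted p = 0.0801). The genes were taken from a list of 50 cyclins, cyclin-dependent kinases (CDKs), replication factors, kinetochore and checkpoint genes and stress genes that act on the cycle, matched by symbol to the 14194 gene entries of the deposited table. Of these, 44 were in the table, and Bub1, Cdk1, Top2a, Mki67, Ccnb1 and Ccnb2 were not in it. The table holds genes whose raw value was at least 5 in every library of at least 1 of the 2 conditions, and 40 of the 44 passed in both conditions. Ndc80, Rrm2, Aurkb and Myc passed in 1 condition alone, as did 639 (4.5%) of all entries. Such a gene had at least 1 library of the other condition below that value, which favours a difference between the groups without requiring one. Of the entries that passed in 1 condition 6.1% were called by the test used below, against 0.93% of those that passed in both, so counts and medians are also given without these 4.

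All mice carried Aldh1l1-cre/ERT2+ and NuTRAP+, were Tam-induced, and were anaesthetised with ketamine and xylazine for a procedure on 1 eye. Aldh1l1 drives the Cre in astroglia, so tagged ribosomes can come from retinal astrocytes as well as Müller glia, and anti-GFP pull-down gave the positive fraction. In the ONC eyes forceps held the optic nerve for 3 s at roughly 1 mm from the globe, and retinae were collected at 72 h. Their fellow eyes, untreated or sham-operated without the labels saying which, were the Control. There were 5 ONC libraries (pools 913/986, 914/92, 938/88, 976/978 and 981/982) and 4 Control libraries (the same pools without 913/986), each made from 2 pooled retinae, so 4 pools give both eyes of the same animals. Values were taken as log2 and are relative to a control baseline of each gene, so they carry no absolute level and no sequencing depth. Levels cannot be compared between genes. All 13 Müller glia markers examined were in the table. So were all listed markers of photoreceptors, retinal ganglion cells, endothelial cells and pericytes, and microglia and macrophages, and some of other leukocytes. Presence in the table therefore does not show which cells the fraction held. The differences of the 13 Müller glia markers between ONC and Control had a median of 0.06. Of these differences 9 were positive and 4 negative, the lowest at -0.26. None of the 13 passed, but Crym, Vim and Clu differed by 1.22, 0.99 and 0.61, and Crym and Vim passed with the animal pool as a block (adjusted p = 0.0428 and 0.0373 by limma). Of 7 astrocyte markers 0 passed by limma (2 at an unadjusted p under 0.05, against 19.5% of all entries), with a median of -0.01. Their differences were positive in 3 and negative in 4, the lowest at -0.26. Gfap, an intermediate filament of reactive glia, differed by 1.80, and Aldh1l1, whose promoter drives the Cre, by 0.68. As the libraries are bulk RNA, fewer cells of a type and less RNA per cell cannot be told apart.

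A cell that divides passes through G1, copies its DNA in S phase and separates its chromosomes in mitosis. D-type cyclins with Cdk4 and Cdk6 release E2F factors from the retinoblastoma protein, E2F then raises replication genes, and later the mitotic kinases and the kinetochore, which ties chromosomes to the spindle, are made. Cdkn1a (p21), a target of the tumour suppressor p53, and the Gadd45 proteins restrain the cycle under stress. Müller glia of fish re-enter the cycle after retinal injury, whereas those of adult mammals seldom divide.

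Over all genes, 165 of 14194 (1.16%) differed between ONC and Control at an adjusted p under 0.05 (limma, two-sided, Benjamini-Hochberg over all entries), and 73 of them (0.514%) were higher in ONC. Among the 44 members that test called 1, Ndc80, and among the 40 that passed the filter in both conditions it called 0. At an unadjusted p under 0.05 stood 12 members (27.3%), against 19.5% of all entries, and 9 of the 40 members that passed the filter in both conditions (22.5%, against 19.1% of all such entries). Every ONC library lay above every Control library in 8 members, against 3.39% of all entries: Ndc80, Spc24, Rrm2, Pcna, Cdkn1a, Trp53, Gadd45a and Gadd45g. Without Ndc80 and Rrm2, which passed the filter in 1 condition, these were 6 of 40 (15.0%, against 3.15% of all such entries). Cdk6 was the member with every ONC library below every Control library, a pattern seen in 4.44% of all entries. The median difference over the 44 members was 0.20 on the log2 scale, against -0.0006 over all entries, and 0.18 over the 40. A positive difference was found in 30 of the 44 (68.2%) and 27 of the 40 (67.5%), against 49.9% of all entries. In all 4 pools that hold both eyes, 14 members (31.8%) and 12 of the 40 (30.0%) were higher in ONC, against 17.9% of all entries. Members were chosen with earlier results of these data known, so these counts describe the list.

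**Figure D1:**
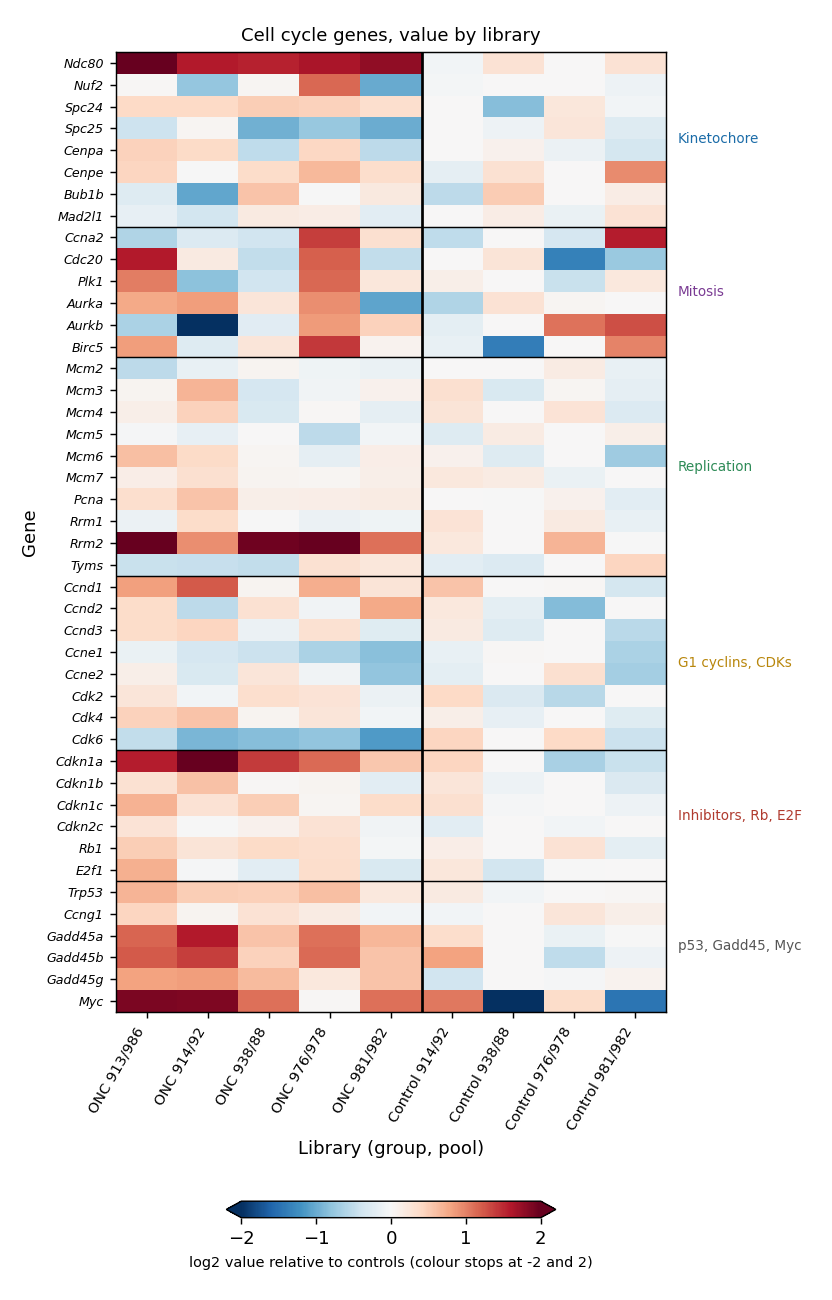
Log2 value of each of the 44 measured cell cycle genes (rows, by role) relative to the control baseline in 5 ONC libraries (left of the line) and 4 Control libraries (right). Ndc80, Rrm2, Cdkn1a and the Gadd45 genes are red across the ONC libraries, Cdk6 is blue there, and the mitotic genes change colour from library to library within both groups.

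**Figure D2:**
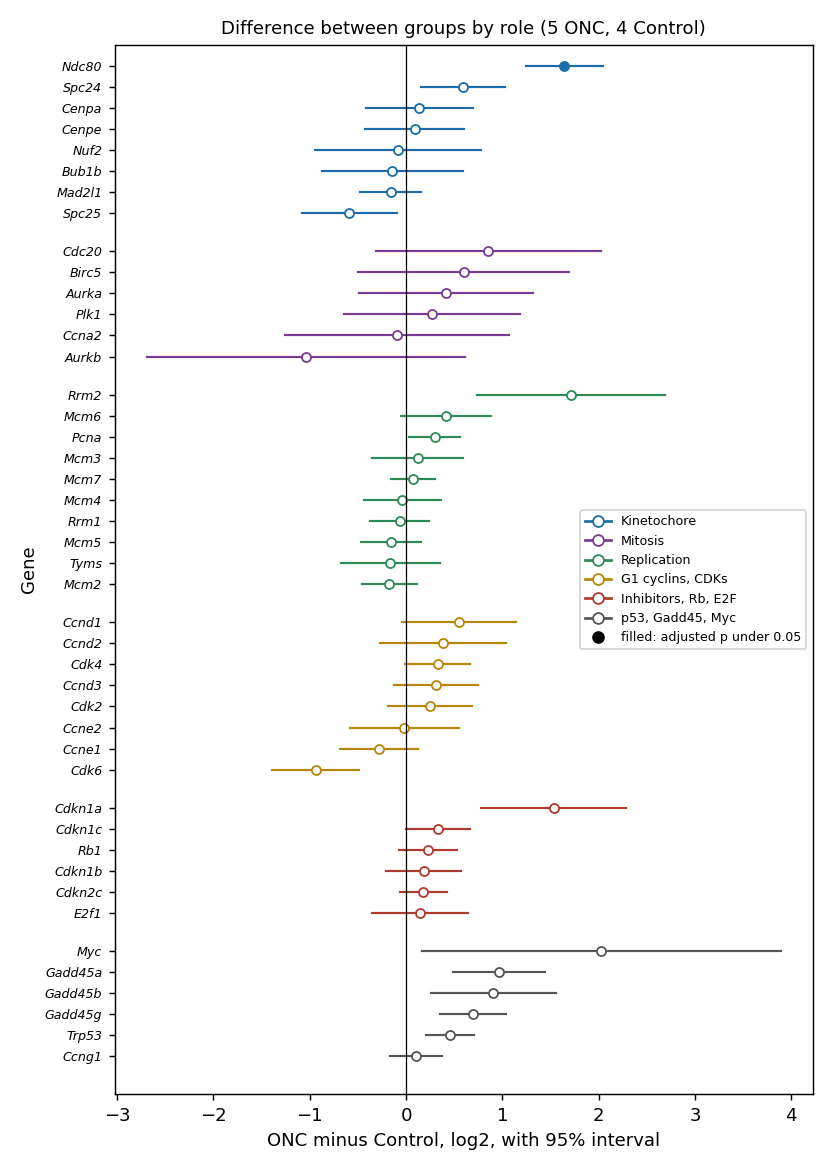
ONC minus Control difference (log2, horizontal axis) of each member with its 95% interval, from 5 ONC and 4 Control libraries, in order of size within each role. Ndc80 carries the filled point of an adjusted p under 0.05, and the intervals of most replication and mitotic genes cross 0.

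Ndc80 and its partners Nuf2, Spc24 and Spc25 form the 4-part complex by which the outer kinetochore grips spindle microtubules. Ndc80, the subunit that binds the microtubule, had log2 values of 2.35, 1.59, 1.54, 1.63 and 1.77 in the ONC libraries (pools in the order given above), against -0.06, 0.29, 0.00 and 0.29 in the Control libraries. The lowest ONC value was thus above the highest Control value by more than the whole range of the controls. The log2 difference was 1.64 ± 0.18 SE (3.13-fold, adjusted p = 0.00359 by limma). With a variance trend the adjusted p was 0.0194, with the animal pool as a replicate block 0.0311, and with both 0.0801, in a fit that called 0 of all genes (3574 at an unadjusted p under 0.05, and 129 called with the block and no trend). Ndc80 missed the raw value filter in 1 of the conditions, and of the 639 entries that did so 28 (4.38%) were called higher, against 0.332% of those that passed in both. Its p-values and error therefore describe a gene selected in part for its difference and do not support a rise.

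Spc24, which anchors the complex to the inner kinetochore together with Spc25, had values of 0.40, 0.41, 0.49, 0.46 and 0.33 in ONC, against 0.00, -0.85, 0.22 and -0.06 in Control. The ONC values lie close together above all controls, and Control 938/88 is the low one (log2 difference 0.59, 95% interval 0.15 to 1.03, adjusted p = 0.163). Spc25 went the other way in sign, with -0.41, 0.03, -0.96, -0.75 and -0.99 in ONC and 0.00, -0.10, 0.24 and -0.26 in Control. Its groups overlap through ONC 914/92, and the difference of -0.59 did not pass (adjusted p = 0.194). Nuf2, the direct partner of Ndc80, was spread over 0.02, -0.78, 0.04, 1.14 and -1.01 in ONC, while the controls sat between -0.10 and 0.01. Its difference was -0.08 with a 95% interval of -0.95 to 0.78. Differences between subunits were not tested.

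**Figure D3:**
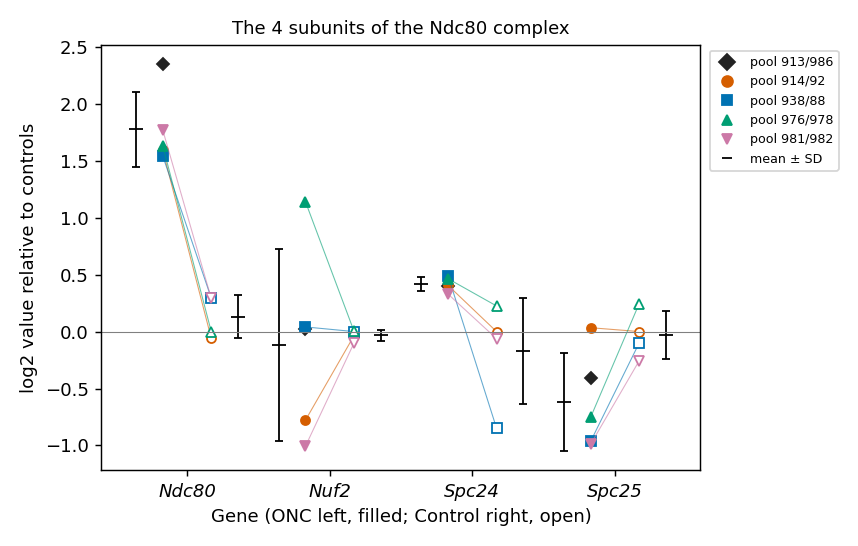
Log2 value relative to controls (vertical axis) of the 4 subunits of the Ndc80 complex in each library, ONC left (filled) and Control right (open), with lines joining the eyes of a pool and black bars for mean ± SD (n = 5 ONC, n = 4 Control). Ndc80 is above its controls in all libraries, with ONC values between 1.54 and 2.35, whereas Nuf2 spreads to both sides of 0 in ONC and Spc25 lies mostly below it.

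The promoters of these subunits are shown because genes of mitosis are known to share the CHR element (TTTGAA), bound by complexes that hold them silent outside the cycle, and the CCAAT box (CCAAT), while replication genes carry E2F elements (TTTNNCGC). Each window runs 250 bases before and 50 bases from the RefSeq start (GRCm38.p6), both strands were searched, and 34 of the 44 members have a window, Spc24 not being among them. Capitals mark matches, and no matches overlap in the windows printed.

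Ndc80 (chr17:71526808-71527107, minus strand): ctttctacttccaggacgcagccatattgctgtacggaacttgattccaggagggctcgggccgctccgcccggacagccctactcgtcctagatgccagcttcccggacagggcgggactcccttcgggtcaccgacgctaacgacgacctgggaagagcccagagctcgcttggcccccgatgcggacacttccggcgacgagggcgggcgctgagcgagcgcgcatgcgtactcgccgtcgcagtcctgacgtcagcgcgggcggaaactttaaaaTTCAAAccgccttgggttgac

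Nuf2 (chr1:169531415-169531714, minus strand): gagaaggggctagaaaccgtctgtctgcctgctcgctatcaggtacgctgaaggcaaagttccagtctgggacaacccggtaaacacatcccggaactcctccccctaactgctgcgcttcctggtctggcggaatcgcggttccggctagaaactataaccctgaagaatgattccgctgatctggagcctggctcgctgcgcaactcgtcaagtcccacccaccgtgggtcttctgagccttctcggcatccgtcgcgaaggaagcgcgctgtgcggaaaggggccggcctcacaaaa

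Spc25 (chr2:69206164-69206463, minus strand): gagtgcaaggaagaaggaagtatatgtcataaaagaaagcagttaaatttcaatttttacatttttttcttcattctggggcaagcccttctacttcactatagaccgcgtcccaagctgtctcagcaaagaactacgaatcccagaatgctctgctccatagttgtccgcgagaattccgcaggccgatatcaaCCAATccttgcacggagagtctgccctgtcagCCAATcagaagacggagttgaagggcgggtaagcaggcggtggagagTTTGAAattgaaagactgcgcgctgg

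Ndc80 holds 1 CHR element, read as TTCAAA on the printed strand from base 30 after the start, and Spc25 holds 1 at base 25 with 2 CCAAT boxes 55 and 23 bases before the start. Nuf2 holds none of these letters in its window. The 2 subunits with a CHR element differed by 1.64 (Ndc80, which passed the filter in 1 condition) and -0.59 (Spc25, which was not called). A relation between the element and the differences was not tested. Over all 38 member windows 21.1% held a CHR element, against 11.6% of the 14308 windows of genes in the deposited table and 17.9% of all 32851 windows. A CCAAT box stood in 65.8% of member windows, against 37.5% and 37.4%, and the E2F letters in 18.4%, against 7.97% and 5.17%. By role, the CHR element was in 4 of 7 kinetochore windows (57.1%), 3 of 4 mitotic windows (75.0%) and 1 of 10 replication windows (10.0%). A match describes the letters and is not evidence of binding.

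Of the other kinetochore and checkpoint members, Cenpa, the histone that marks the centromere, differed by 0.14, and Cenpe, a kinesin that carries chromosomes along the spindle, by 0.09. Bub1b and Mad2l1, which hold the cell in mitosis until every chromosome is attached, differed by -0.14 and -0.16. None of these 4 passed, and all 4 overlapped between the groups. Of 28 further kinetochore and checkpoint genes measured, 0 passed by limma (4 at an unadjusted p under 0.05, against 19.5% of all entries). Their median was 0.15. The 2 with the smallest p were Mad2l1bp, which helps to switch the checkpoint off (0.29, adjusted p = 0.153), and Cenpm, an inner centromere protein (0.98, adjusted p = 0.175).

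The 6 measured genes of mitotic entry and exit varied widely between libraries of the same group. Their median SD was 0.842 within ONC and 0.742 within Control, against 0.247 and 0.206 over all entries, and without Aurkb, which passed the filter in 1 condition, 0.824 and 0.733. Cdc20, which activates the ubiquitin ligase that starts anaphase, had values of 1.59, 0.18, -0.49, 1.19 and -0.50 in ONC, against 0.00, 0.26, -1.36 and -0.74 in Control (difference 0.85, adjusted p = 0.371). Birc5 (survivin), a partner of Aurora B, had 0.84, -0.26, 0.24, 1.42 and 0.07 in ONC, against -0.15, -1.38, 0.00 and 0.99 in Control (0.60, adjusted p = 0.493). ONC 913/986 and ONC 976/978 were the high ONC libraries for both, and the groups overlapped. Aurkb, the kinase of that complex and a gene that passed the filter in 1 condition, had -0.63, -2.98, -0.22, 0.85 and 0.46 in ONC and -0.20, 0.00, 1.08 and 1.29 in Control (-1.04, adjusted p = 0.436). It was lower in ONC in 4 of 4 pools, the reverse of the sign of its partner Birc5, and neither passed.

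Plk1 and Aurka, kinases of centrosomes and mitotic entry, differed by 0.27 and 0.42, and Ccna2 (cyclin A), which drives S phase and entry into mitosis, by -0.09. Each of these was higher in ONC in 2 of 4 pools. Control 981/982 held the highest Ccna2 value of all, 1.57, and ONC 976/978 the next, 1.38. Among 38 further genes of mitosis and cytokinesis 0 passed by limma (6 at an unadjusted p under 0.05, against 19.5% of all entries). Of these 6, 4 had a positive and 2 a negative difference, and the median of the 38 was 0.11. The 2 with the smallest p both had negative differences: Kif4, a chromosome-bound kinesin, differed by -0.47 (adjusted p = 0.0869) and Hmmr, a spindle protein and hyaluronan receptor, by -0.84 (adjusted p = 0.0899). Hmmr passed without Control 914/92 (-1.02, adjusted p = 0.033) and without the 2 libraries of pool 914/92 (-0.95, adjusted p = 0.0483), and in no other alternative. In Kif4 and Hmmr, every ONC library lay below every Control library, a pattern seen in 4.44% of all entries.

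The 10 DNA replication members had a median difference of 0.01, and of -0.04 without Rrm2, which passed the filter in 1 condition and lay far above the rest. The 6 subunits of the MCM helicase, Mcm2 to Mcm7, which unwinds DNA at the fork, had differences between -0.17 (Mcm2) and 0.42 (Mcm6), and none passed. Pcna, the sliding clamp of DNA polymerase, had 0.33, 0.57, 0.12, 0.13 and 0.17 in ONC, against 0.00, 0.00, 0.08 and -0.21 in Control. All ONC values lay above all controls by a narrow margin (difference 0.30, 95% interval 0.03 to 0.56, adjusted p = 0.216). Mcm6 had 0.61, 0.38, 0.05, -0.18 and 0.13 in ONC, against 0.08, -0.25, 0.01 and -0.72 in Control, and the groups overlapped (adjusted p = 0.293). Tyms, which makes thymidylate, and Rrm1 differed by -0.16 and -0.07.

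Rrm2, the small subunit of ribonucleotide reductase, which makes deoxyribonucleotides for S phase, had the second largest difference of all members. Its values were 2.71, 0.93, 1.95, 2.97 and 1.11 in ONC, against 0.22, 0.00, 0.68 and -0.00 in Control. Every ONC library was above every control, but the ONC values spread over a wider range than the difference itself, 1.71 ± 0.43 SE (3.27-fold, adjusted p = 0.0972, and 0.08 with the animal pool as a block). Rrm1, the large subunit of the same enzyme, had -0.12, 0.37, -0.01, -0.12 and -0.08 in ONC and 0.27, 0.00, 0.18 and -0.15 in Control, with a 95% interval of the difference of -0.37 to 0.24. Rrm2 passed the filter in 1 condition and Rrm1 in both. The Rrm2 promoter (chr12:24708004-24708303, plus strand) holds 1 CCAAT box 50 bases before the start and neither a CHR element nor the E2F letters.

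Rrm2: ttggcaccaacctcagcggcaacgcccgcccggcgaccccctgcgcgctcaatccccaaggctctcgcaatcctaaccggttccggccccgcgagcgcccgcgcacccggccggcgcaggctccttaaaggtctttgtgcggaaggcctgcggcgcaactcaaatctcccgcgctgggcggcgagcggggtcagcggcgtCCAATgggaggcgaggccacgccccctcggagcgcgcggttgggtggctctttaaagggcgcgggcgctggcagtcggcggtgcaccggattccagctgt

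Of the 10 windows of replication members, 90% hold a CCAAT box and 50% the E2F letters, Rrm2 having the first alone. Among 50 further replication and S phase genes 0 passed by limma (2 at an unadjusted p under 0.05, against 19.5% of all entries). Their median was 0.03. Uhrf1, which carries DNA methylation through replication, differed by 1.02 (adjusted p = 0.211) and Brca1, a repair factor, by -0.48 (adjusted p = 0.216).

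Of the G1 genes, Cdk6 was the one set apart from its controls, and it lay below them. Cdk6, a kinase partner of the D cyclins, had -0.49, -0.92, -0.86, -0.78 and -1.14 in ONC, against 0.44, 0.00, 0.40 and -0.43 in Control. The groups did not touch, though Control 981/982 came close to the highest ONC library, ONC 913/986. The difference of -0.94 ± 0.20 SE, a 1.92-fold lower level, had an adjusted p = 0.0633, with 4 of 4 pools lower. It passed in 1 of 17 alternatives, without Control 981/982 (-1.12, adjusted p = 0.0344). Leaving out 1 library, its adjusted p reached 0.1975. Cdk4, the other kinase of the D cyclins, had 0.46, 0.57, 0.05, 0.25 and -0.05 in ONC, against 0.12, -0.16, 0.00 and -0.25 in Control, so the groups overlapped (difference 0.33, adjusted p = 0.267). The 95% intervals, not adjusted for the number of genes, were -1.39 to -0.49 for Cdk6 and -0.01 to 0.66 for Cdk4. The difference between the 2 kinases was not tested.

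Ccnd1 (cyclin D1), the G1 cyclin that answers growth signals, had 0.82, 1.22, 0.05, 0.73 and 0.25 in ONC, against 0.56, 0.00, 0.03 and -0.34 in Control. It was higher in 4 of 4 pools, and Control 914/92 lay among the ONC libraries (difference 0.55, adjusted p = 0.28). Ccnd2 and Ccnd3, the other D cyclins, differed by 0.38 and 0.31, and neither passed. The E cyclins, which act with Cdk2 at the start of S phase, did not share that sign: Ccne1 differed by -0.28 and was lower in 4 of 4 pools, Ccne2 by -0.02, and Cdk2 itself by 0.25. None of these passed.

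Cdkn1a, the CDK inhibitor p21, had the largest difference of the inhibitors. Its values were 1.56, 2.20, 1.40, 1.13 and 0.54 in ONC, against 0.43, 0.00, -0.66 and -0.44 in Control. All ONC values lay above all controls, with ONC 981/982 nearest to them, just above Control 914/92. The difference was 1.53 ± 0.34 SE (2.89-fold, 95% interval 0.77 to 2.29) with an adjusted p = 0.0686, so it did not pass in the comparison of groups. With the animal pool as a replicate block, the difference rests on the 4 pools with both eyes. Cdkn1a passed in that fit (1.48, adjusted p = 0.0428), which called 129 of all genes (0.909%) and, of the members, Cdkn1a and Ndc80. With the block and a variance trend it did not (adjusted p = 0.0801), nor with quantile normalization (1.36, adjusted p = 0.158), and it passed in 2 of 17 alternatives. The differences within pools were 1.77, 1.40, 1.79 and 0.98 in the order 914/92, 938/88, 976/978 and 981/982. The other of the 2 was the fit without ONC 981/982 (1.74, adjusted p = 0.0351), and over all single libraries left out its adjusted p ran from 0.0351 to 0.213.

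None of the remaining brakes passed. Cdkn1c (p57) had 0.70, 0.30, 0.49, 0.04 and 0.37 in ONC, against 0.33, -0.02, 0.00 and -0.10 in Control (difference 0.33, adjusted p = 0.262). Rb1, the retinoblastoma protein that holds E2F, had 0.49, 0.26, 0.38, 0.34 and -0.03 in ONC, against 0.14, 0.00, 0.29 and -0.19 in Control (0.23, adjusted p = 0.363). In both genes the groups overlapped. Cdkn1b (p27) and Cdkn2c (p18) differed by 0.18 each and E2f1 by 0.14. Of 24 further genes around Rb and E2F 0 passed by limma (1 at an unadjusted p under 0.05, against 19.5% of all entries). That 1 was Cdkn2b, an inhibitor of Cdk4 and Cdk6, at 0.80 with an adjusted p = 0.185. The second smallest p was that of Mnat1, an assembly factor of the CDK-activating kinase (0.24, adjusted p = 0.344).

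**Figure D4:**
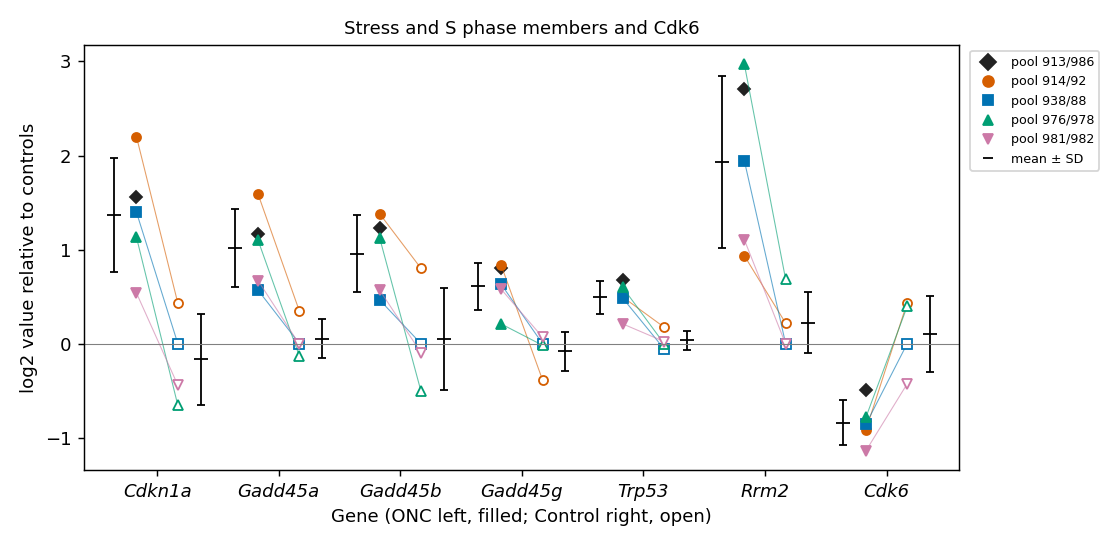
Log2 value relative to controls (vertical axis) of 7 members in each library, ONC left (filled) and Control right (open), with lines joining the eyes of a pool and black bars for mean ± SD (n = 5 ONC, n = 4 Control). Cdkn1a, Gadd45a, Gadd45g, Trp53 and Rrm2 lie above their controls in all ONC libraries and Cdk6 below, while Gadd45b overlaps through Control 914/92.

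The p53, Gadd45 and Myc members had the highest median of the 6 roles, 0.80 over 6 genes and 0.69 over the 5 without Myc, all with positive differences, although none passed. Gadd45a, which is induced by DNA damage and other stress, had 1.16, 1.59, 0.57, 1.10 and 0.67 in ONC, against 0.35, 0.00, -0.13 and -0.01 in Control (0.97 ± 0.21 SE, 1.95-fold, adjusted p = 0.0677). Gadd45g had 0.80, 0.83, 0.63, 0.21 and 0.58 in ONC, against -0.39, 0.00, -0.02 and 0.07 in Control (0.69 ± 0.15 SE, 1.62-fold, adjusted p = 0.0683). It passed in 1 of 17 alternatives, without ONC 976/978 (0.80, adjusted p = 0.0437). Leaving out 1 library, its adjusted p reached 0.188. Neither Gadd45a nor Gadd45g overlapped between the groups. Gadd45b had 1.23, 1.38, 0.47, 1.13 and 0.57 in ONC, against 0.80, 0.00, -0.51 and -0.10 in Control (0.91 ± 0.29 SE, adjusted p = 0.153). All 3 Gadd45 genes were higher in 4 of 4 pools, and Gadd45b overlapped because Control 914/92 exceeded ONC 938/88 and ONC 981/982.

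Trp53, which encodes p53, had 0.68, 0.50, 0.48, 0.60 and 0.21 in ONC, against 0.18, -0.06, 0.00 and 0.02 in Control. The groups did not overlap, and the difference was small, 0.46 ± 0.11 SE (1.37-fold, adjusted p = 0.0888). It passed in 1 of 17 alternatives, without ONC 981/982 (0.53, adjusted p = 0.0402). Leaving out 1 library, its adjusted p reached 0.255. Ccng1 (cyclin G1), a target of p53 like Cdkn1a, had 0.43, 0.06, 0.29, 0.16 and -0.06 in ONC, against -0.06, 0.00, 0.24 and 0.12 in Control, with a difference of 0.10 and a 95% interval of -0.17 to 0.37. A contrast between Cdkn1a and Ccng1 was not tested. The promoters of both are shown because each holds a p53 response element, searched as 2 adjacent decamers of the p53 consensus with at most 1 letter off, a motif added after the sequences had been seen.

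Cdkn1a (chr17:29090729-29091028, plus strand): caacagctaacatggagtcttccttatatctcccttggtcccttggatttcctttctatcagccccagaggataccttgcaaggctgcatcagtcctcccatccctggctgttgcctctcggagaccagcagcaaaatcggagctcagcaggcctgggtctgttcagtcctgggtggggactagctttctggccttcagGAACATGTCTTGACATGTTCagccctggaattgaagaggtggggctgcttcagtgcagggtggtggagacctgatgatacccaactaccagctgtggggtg

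Ccng1 (chr11:40755237-40755536, minus strand): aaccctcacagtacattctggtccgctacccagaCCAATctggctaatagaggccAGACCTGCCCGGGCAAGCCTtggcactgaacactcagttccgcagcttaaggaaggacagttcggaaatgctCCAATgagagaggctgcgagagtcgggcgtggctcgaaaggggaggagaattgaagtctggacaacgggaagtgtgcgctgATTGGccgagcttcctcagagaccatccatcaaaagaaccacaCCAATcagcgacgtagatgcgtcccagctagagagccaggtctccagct

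In Cdkn1a the element begins 51 bases before the start, in the window nearest to the start in the deposited table of the 2 that RefSeq gives. The other Cdkn1a window (chr17:29093519-29093818) holds no such element. In Ccng1 the element begins 195 bases before the start, beside 4 CCAAT boxes. Such an element stood in 29 of all 32851 windows (0.0883%), in 6 of the 14308 of genes in the deposited table (0.0419%) and, among members, in these 2. Of 26 further genes of the p53 pathway 0 passed by limma (9 at an unadjusted p under 0.05, against 19.5% of all entries). Of these 9, 6 had a positive and 3 a negative difference, and the median of the 26 was 0.17. Bbc3 (Puma), a death gene that p53 induces, differed by 1.14 (adjusted p = 0.102) and the death receptor Fas by 1.45 (adjusted p = 0.123). Fas passed without Control 914/92 (1.86, adjusted p = 0.0292), whose Fas value was 1.49, and in no other alternative.

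Myc, a transcription factor that drives growth and entry into the cycle, had the largest difference of all members and the widest error. Its values were 1.89, 1.86, 1.11, 0.03 and 1.10 in ONC, against 1.06, -3.27, 0.36 and -1.46 in Control. Control 938/88 and Control 981/982 were far below the other 2 controls, and the difference of 2.03 ± 0.83 SE (adjusted p = 0.225) became 1.21 without Control 938/88. Myc passed the filter in 1 condition. Of 10 further genes of the Myc network 0 passed by limma (1 at an unadjusted p under 0.05, against 19.5% of all entries). That 1 was Mga, a repressor of Myc targets, at -0.52 (adjusted p = 0.123), and Mxi1, a Myc antagonist, followed at 0.23 (adjusted p = 0.405).

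Markers of microglia and other leukocytes had positive differences, and most markers of retinal ganglion cells had negative ones. All 16 markers of microglia and macrophages had positive differences, with a median of 1.60, and the 12 that passed the filter in both conditions had a median of 1.43 with 0 called by limma. Of the 16, of which 4 passed the filter in 1 condition, 12 had an unadjusted p under 0.05 by limma, against 19.5% of all entries. Every ONC library lay above every Control library in 7 of the 16, against 3.39% of all entries. Cd68, a lysosomal protein of phagocytes, was called among all 16 but entered through 1 condition, and it missed with the animal pool as a block (adjusted p = 0.053). The median of the 16 per library was 2.65, 0.40, 2.78, 1.08 and 1.45 in ONC (pools in the order given above), against 0.10, 0.19, -0.03 and -0.16 in Control. ONC 913/986 and ONC 938/88 were thus the high libraries in these markers, with Ndc80 at 2.35 and 1.54, Rrm2 at 2.71 and 1.95, and Cdkn1a at 1.56 and 1.40. ONC 914/92 was the low one, with Ndc80 at 1.59, Rrm2 at 0.93 and Cdkn1a at 2.20. ONC 976/978 and ONC 981/982 lay between, with Ndc80 at 1.63 and 1.77, Rrm2 at 2.97 and 1.11, and Cdkn1a at 1.13 and 0.54. Other leukocyte markers had a median of 2.09 over 5 genes and 2.07 over the 2 that passed the filter in both conditions. Their medians per library ran from 1.45 to 3.48 in ONC and from -0.16 to 0.50 in Control. S100a9, S100a8 and Cd52 were called, of which S100a9 alone passed the filter in both conditions and kept its call with the block. Of 12 retinal ganglion cell markers 11 had a negative difference, with a median of -0.82. Of the 12, 6 passed as lower, against 92 of all 14194 entries, or 4 with the block, against 61. None of 13 photoreceptor markers (median -0.40) and none of 13 endothelial and pericyte markers (median -0.21) passed by limma. At an unadjusted p under 0.05 stood 1 of each, against 19.5% of all entries. The part of these cells in the members' differences was not tested, and no level of any marker can be read from values of this kind.

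**Figure D5:**
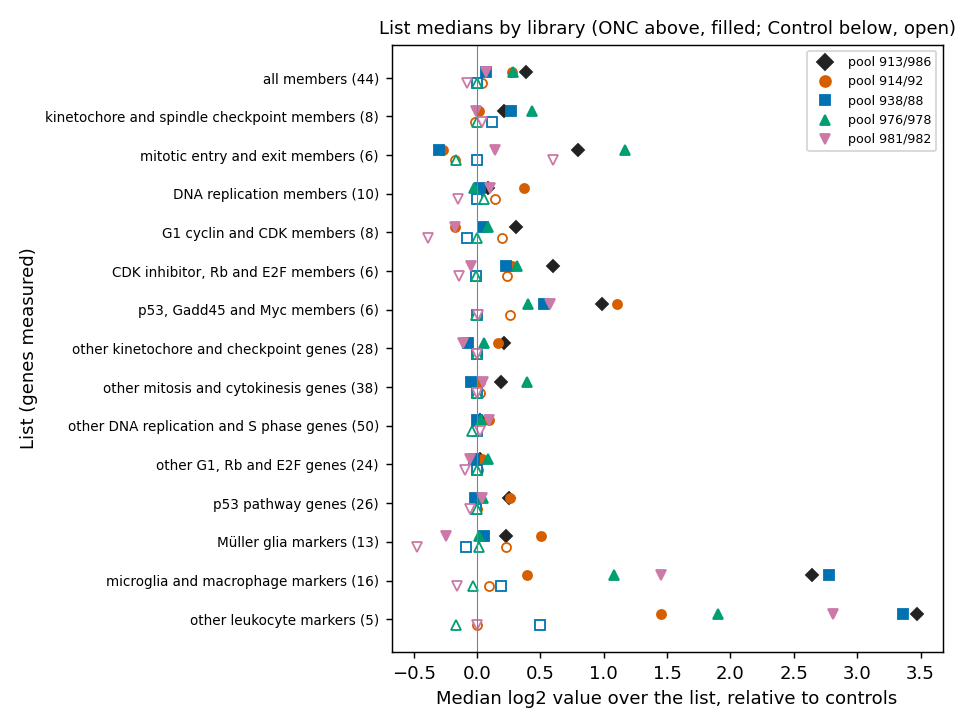
Median log2 value over each gene list (rows, with the number of genes measured) in each ONC library (filled, upper) and Control library (open, lower), relative to controls. The p53, Gadd45 and Myc members lie to the right of their controls in all 5 ONC libraries, and further replication genes stay near 0. Microglia and other leukocyte markers spread from 0.40 to 3.48 in ONC.

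Some members overlap other genes, and strand use in counting is not given in the sources used here. In the GENCODE annotation of the same assembly, Cdc20 overlaps Elovl1 on the other strand (Elovl1 differed by 0.67), Cdk2 overlaps Pmel (-0.66), and Gadd45a overlaps the noncoding E230016M11Rik (0.18). Cdkn1a and Cdk6 overlap antisense or unconfirmed transcripts that are not in the table. Ndc80 overlaps a small ribosomal RNA gene, Gm23115, that is not in the table, and no other gene. In the coordinates of the deposited table (mm10), Ndc80 (gene ID 67052) lies on chromosome 17 from 71496100 to 71526857, Cdkn1a (12575) on chromosome 17 from 29090986 to 29100722, Rrm2 (20135) on chromosome 12 from 24708254 to 24714146 and Cdk6 (12571) on chromosome 5 from 3344312 to 3522225.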

How the data were processed

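Ribosome-bound RNA of 5 ONC and 4 Control libraries was compared. The deposited values were normalized by the authors, per the file headers, which name RefSeq gene models and a filter on raw values of at least 5 in 100% of the libraries of either condition. That they are log2 and relative to a control baseline was read from the values: 13230 of 14194 entries (93.2%) have exactly 1 Control library at 0. Build mm10 and DESeq, without a version, are named in the submitters' processing notes. An aligner or counter is not given in the sources used here. No counts are given, and the depth of each library is unknown, so the precision of a value rests on the spread between libraries.

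Each entry was fitted with limma 3.58.1 in R 4.3.3, ONC against Control, on the values as deposited, without a block or a variance trend, and p-values were adjusted over all 14194 entries at a threshold of 0.05. A trend was not used because the mean of values relative to the controls follows the difference under test. It was run as an alternative, as were the animal pool as a block, a robust fit, other scalings, the filter in both conditions and leaving out libraries. The fit was tested on simulated data. Fellow eyes come from the same animals, so pools pair the libraries. Deviations from the group means correlated at 0.377 (914/92), 0.178 (938/88), -0.0642 (976/978) and 0.45 (981/982) between the eyes of a pool.

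Members, gene lists and tests were chosen with earlier results of these data known. Values per library are given for Ndc80, Cdkn1a, the members past the threshold, the 3 smallest p of each role, and further members picked after their values were seen (Nuf2, Rrm1, Gadd45b, Ccng1 and Myc). Of each other list, genes past the threshold or the 2 smallest p are named. Promoters are from RefSeq (GRCm38.p6), matched by gene ID.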

Additional observations from a re-analysis of the deposited data

Results flagged for a closer look

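Each member was examined for a library far from the others of its group, in 88 sets of 4 or 5 values, of which chance flags about 1 in 20, and 2 stood out. Ndc80 was 2.35 in ONC 913/986, against 1.54 to 1.77 in the other ONC libraries. Rrm1 was 0.37 in ONC 914/92, against -0.12 to -0.01 in the other ONC libraries.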

How the results depend on the processing

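Across all genes 165 passed. With a variance trend 50 did, with quantile normalization 30, among genes that passed the filter in both conditions 102, with the animal pool as a replicate block and a trend 0, and leaving out 1 library 62 to 234 (64 without ONC 913/986, 92 without ONC 976/978, and 71, 90 and 62 without Control 938/88, Control 981/982 and Control 976/978). Among members 1 passed (Ndc80), 2 with the replicate block (Cdkn1a added), 0 with the block and a trend, 0 among genes that passed in both conditions, a set that leaves Ndc80 out, and 1 to 3 leaving out 1 library (2 without ONC 976/978 or Control 981/982, 3 without ONC 981/982). The replicate block changed no other call of a member. The median difference of the members was 0.20 and ran from 0.14 to 0.27 over the 17 alternatives. Of the 44 members 36 kept their sign under every alternative run for them, 17 or, for the 4 that passed the filter in 1 condition, 16. The other 8 all had a main difference of at most 0.14 in size. Signs turned in Nuf2 without pool 914/92 (0.0814), Cenpe (-0.0206) and Ccne2 (0.0065) with quantile normalization, and Ccna2 (0.0809) and E2f1 (-0.0081) with the block, with or without a trend. Leaving out 1 library, the ranges were -0.40 to 0.14 for Nuf2, -0.0575 to 0.32 for Cenpe, -0.33 to 0.0931 for Bub1b, -0.42 to 0.37 for Ccna2, -0.0305 to 0.24 for Mcm3, -0.15 to 0.04 for Mcm4, -0.20 to 0.13 for Ccne2 and -0.0081 to 0.25 for E2f1. The cause of these changes was not tested. With no counts, whether depth limits a value cannot be told.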

Other observations

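The neighbours of Ndc80 on chromosome 17 that are in the table did not pass by limma. Smchd1, which helps to silence the inactive X chromosome and lies on one side, differed by -0.24 (adjusted p = 0.275), and Spdya, a CDK activator on the other side, by 0.27 (adjusted p = 0.488). Emilin2, a matrix glycoprotein beyond Smchd1, differed by 1.26 (adjusted p = 0.0761).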
